A study of Homo sapiens with 4 samples.

Results

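C/D box small nucleolar RNAs (snoRNAs) are described here across 4 sequencing libraries of human HEK293T cells. The members are all genes of the deposited count table whose GENCODE 44 symbol starts with SNORD, which gave 314 of 62700 genes. HEK293T is a widely used line of human embryonic kidney origin, and per the labels the cells were a stable clone derivative carrying a CMV-driven, V5-tagged PRADA construct sent to the mitochondrial matrix. All groups were treated with s4U, a thiol-bearing form of uridine that cells build into RNA, at 100 µM over 5 h, followed by s4U plus alkyne phenol (0.5 mM) over 30 min. The labelled group of 2 libraries was also given 10 mM D-amino acid for 30 min, which starts the labelling reaction, and the unlabelled group of 2 libraries was not. The titles of the labelled libraries carry an added DF, which the labels do not spell out and which was read as the D-amino acid of the protocol. RNA was depleted of ribosomal RNA before library preparation.

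The labelled libraries held 9380258 and 12287451 assigned fragments, and the unlabelled libraries held 8172347 and 5771795. The value of 3 fragments was 0.320 and 0.244 CPM (counts per 1000000 assigned) in labelled and 0.367 and 0.520 CPM in unlabelled libraries. Genes of the mitochondrial chromosome took 27.0% and 30.9% of the assigned fragments in labelled libraries, against 9.04% and 10.4% in unlabelled libraries, so summed shares of the members are also given over nuclear genes alone. Unlabelled replicate 2 stood apart: it was the shallowest library and had the highest share of signal recognition particle RNA (RN7SL genes), with 1.05% and 1.08% in labelled libraries, against 1.64% in unlabelled replicate 1 and 2.89% in unlabelled replicate 2. The titles call the libraries biological replicates but do not describe separate cultures, and the p-values therefore reflect only the variation among these 4 libraries, which may be technical. Of the markers of the line, VIM was counted at 171 and 154 CPM in labelled and 237 and 206 CPM in unlabelled libraries and KRT18 at 21.0 to 30.6 CPM. KRT8 was at 6.43 to 9.91 CPM and CDH2 at 5.05 to 6.85 CPM, both lower in each library than COL1A1. The leukocyte marker CD3E and the erythroid marker HBB were at 0 and PTPRC and PECAM1 lay under the value of 3 counts in every library, the hepatocyte marker ALB had 1 and 5 counts in labelled and 1 and 3 in unlabelled libraries, while the fibroblast collagen gene COL1A1 was counted at 18.8 and 16.8 CPM in labelled and 21.3 and 13.5 CPM in unlabelled libraries.

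C/D box snoRNAs typically carry a C box near the start and a D box near the end. These boxes bind the core proteins of the small nucleolar ribonucleoprotein, among them the methyltransferase fibrillarin. Most C/D box snoRNAs pair with ribosomal RNA and guide ribose methylation in the nucleolus, a nuclear compartment distinct from the mitochondrial matrix. A few, such as U3, U8, U13, U14 and U22, act in the cleavage and folding of the ribosomal RNA precursor or in its base modification. Most human C/D snoRNAs lie in introns of host genes and are released from the spliced intron, whereas U3 and U13 are transcribed from their own promoters.

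The RNAs on which the results turn are printed from the GENCODE 29 transcripts on GRCh38, 5′ to 3′ as DNA letters, with the C box motif TGATGA and the last D box motif CTGA in capitals. The first 3 are the U3 copies, shown because they carried most of the counted fragments and differ by single bases. In these copies the marked TGATGA starts at base 158 of 217 and not near the start. SNORD3A lies at chr17:19188016-19188232 on the plus strand, SNORD3B-1 at chr17:19061912-19062128 on the plus strand and SNORD3C at chr17:19190029-19190245 on the minus strand.
SNORD3A: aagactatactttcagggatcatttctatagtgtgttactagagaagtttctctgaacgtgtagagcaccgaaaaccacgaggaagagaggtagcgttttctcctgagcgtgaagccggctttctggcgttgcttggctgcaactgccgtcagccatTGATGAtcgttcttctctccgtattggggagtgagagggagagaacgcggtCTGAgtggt
SNORD3B-1: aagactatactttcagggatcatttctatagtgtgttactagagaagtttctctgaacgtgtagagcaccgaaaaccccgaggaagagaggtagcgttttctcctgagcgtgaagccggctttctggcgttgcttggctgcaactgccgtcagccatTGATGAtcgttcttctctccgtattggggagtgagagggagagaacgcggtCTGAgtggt
SNORD3C: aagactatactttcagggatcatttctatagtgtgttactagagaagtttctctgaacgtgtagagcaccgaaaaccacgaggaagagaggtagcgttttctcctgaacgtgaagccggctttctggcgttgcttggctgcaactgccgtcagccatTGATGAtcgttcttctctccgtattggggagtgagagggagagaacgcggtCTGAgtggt

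Counted from 1 at the 5′ end of these RNAs, with the SNORD3A base first, SNORD3B-1 carried A78C and SNORD3C carried G108A. The fourth counted copy, SNORD3B-2 at chr17:19063920-19064136 on the minus strand, was identical to SNORD3B-1 over all 217 bases. The intervals over which these genes were counted were longer than the RNA, at 699 bases for SNORD3A, 758 for SNORD3B-1, 791 for SNORD3B-2 and 581 for SNORD3C. Fragments that lie wholly in bases shared by several copies map equally well to each and are not counted under the authors' settings, so the counts of single copies are uncertain.

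The next 5 RNAs are shown because they were, after U3, the members with most fragments per length (SNORD17, SNORD101 and SNORD69) or because they stand for guides with another role (SNORD94 and SNORD14A). SNORD17 lies at chr20:17962710-17962946 on the minus strand within introns of SNX5 and OVOL2, SNORD101 at chr6:132815307-132815379 on the plus strand in RPS12, and SNORD69 at chr3:52692736-52692812 on the plus strand in GNL3. SNORD94 lies at chr2:86135870-86136006 on the plus strand in PTCD3, and SNORD14A at chr11:17074654-17074744 on the minus strand in RPS13.
SNORD17: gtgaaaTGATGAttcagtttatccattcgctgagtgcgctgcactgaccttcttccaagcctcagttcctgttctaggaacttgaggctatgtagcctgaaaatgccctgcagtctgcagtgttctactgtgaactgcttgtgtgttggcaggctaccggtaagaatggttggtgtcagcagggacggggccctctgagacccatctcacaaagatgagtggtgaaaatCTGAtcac
SNORD101: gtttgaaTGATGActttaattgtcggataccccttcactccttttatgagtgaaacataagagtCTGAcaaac
SNORD69: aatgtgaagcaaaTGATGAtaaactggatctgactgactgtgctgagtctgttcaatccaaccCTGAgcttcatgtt
SNORD94: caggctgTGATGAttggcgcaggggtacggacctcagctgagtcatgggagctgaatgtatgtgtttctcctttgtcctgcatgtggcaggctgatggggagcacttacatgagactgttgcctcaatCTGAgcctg
SNORD14A: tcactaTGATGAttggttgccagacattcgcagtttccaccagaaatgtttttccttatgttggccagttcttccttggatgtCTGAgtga

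U8, encoded by SNORD118 and needed for maturation of the large-subunit ribosomal RNAs, is shown because it illustrates a limit of the count table. It lies at chr17:8173454-8173587 on the minus strand, wholly inside an annotated exon of TMEM107, and it was listed at 0 in all 4 libraries. Its marked TGATGA starts at base 55 of 134.
SNORD118: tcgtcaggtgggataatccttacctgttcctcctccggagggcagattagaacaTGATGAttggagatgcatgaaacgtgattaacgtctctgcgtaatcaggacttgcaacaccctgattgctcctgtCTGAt

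In the motif search over the strand of the transcript, 217 of the 301 SNORD transcripts of 60 to 150 bases, 72.1%, held both TGATGA and CTGA. Among the 6595 other GENCODE 29 transcripts of that length the share was 2.49%. On the reverse strand the shares were 0.664% of SNORD transcripts and 1.17% of the others. With TGATGA required within the first 15 bases and CTGA within the last 15, the shares were 61.1% of SNORD transcripts and 0.258% of the others. Of the 33 members with enough counts for the test below, 22 held both motifs somewhere and 13 held them at both ends.

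Most members were listed at 0, and position in the annotation separated many of them. Of the 314 genes, 223 had no fragment in any library and 91 had at least 1. All 122 members that lay wholly inside an annotated exon of another gene were at 0. Of the 24 that overlapped an exon in part, 16 were at 0 and the other 8 had at most 16 fragments summed over the 4 libraries. Of the 168 members with no such overlap, 83 were counted and 85 were at 0. The authors' counting leaves a fragment that touches the exons of several genes unassigned, so for an RNA inside an exon a listed 0 is no measure of its abundance.

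**Figure D1:**
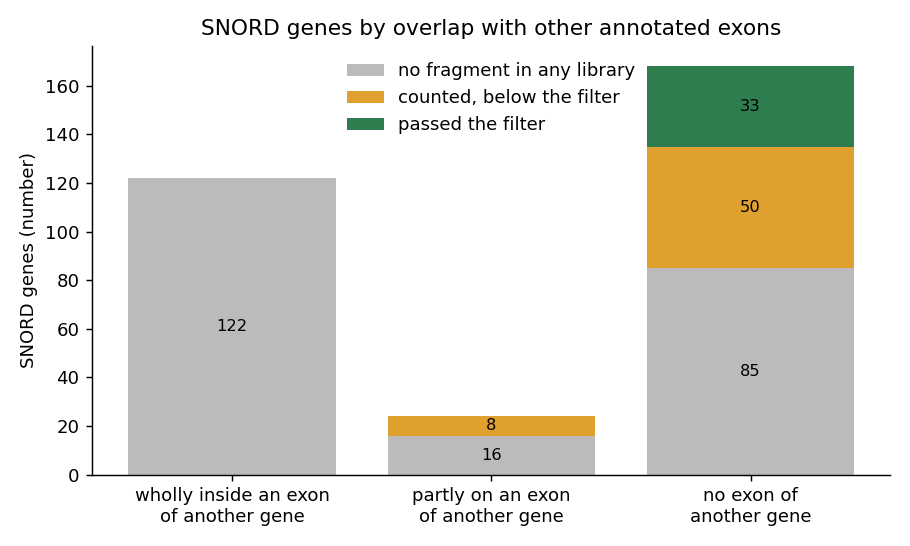
SNORD genes by their overlap with annotated exons of other genes, drawn as numbers of genes passing the filter, counted below it, or at 0 in all libraries. All 122 genes wholly inside an exon are at 0, and the 33 that pass the filter have no exon overlap.

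The exon overlap took out whole clusters. All 7 SNORD genes inside SNHG1, all 4 each inside NOP56, RPL4 and RPL13A and all 3 inside SNHG29 lay within annotated exons and were at 0, and those inside SNHG1 include both SNORD22 (U22) genes. SNHG1 itself, a non-coding host of C/D snoRNAs, was counted at 180 and 189 CPM in labelled and 165 and 180 CPM in unlabelled libraries. The imprinted clusters were also nearly empty in the counts: 81 of 83 genes of the 15q11-q13 cluster and 39 of 40 of the 14q32 cluster were at 0, with 3 and 1 fragments in all. In those 2 clusters 44 and 24 genes had no exon overlap, and of these 42 and 23 were at 0. Fragments that map equally well to several genes are not counted, and likeness between the copies of a cluster was not examined. A 0 is therefore not read as absence for these genes, and how far it reflects low abundance was not tested.

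The 91 counted members held 101458 fragments over the 4 libraries. A filter of 10 or more fragments in at least 2 libraries left 33 members, which held all but 524 of these fragments. The members that only just passed were SNORD12C, with 3 and 15 fragments in labelled and 9 and 10 in unlabelled libraries, and SNORD65C, with 10 and 7 fragments in labelled and 4 and 20 in unlabelled libraries. Just outside were SNORD71, with 9 and 11 fragments in labelled and 3 and 5 in unlabelled libraries, and SNORD6, with 8 and 19 in labelled and 9 and 8 in unlabelled libraries. Of the 33 members, 27 lay on the same strand inside a host gene. Fragments over an intronic snoRNA may come from the mature RNA or from the unspliced host transcript, and the count table cannot tell these apart.

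Summed over all members, C/D snoRNAs took 0.213% and 0.236% of assigned fragments in labelled libraries, against 0.243% and 0.566% in unlabelled libraries. The groups did not overlap, but unlabelled replicate 1 was close to labelled replicate 2, and unlabelled replicate 2 lay far above the other libraries. The 95% Wilson intervals, which cover counting error only, were 0.210% to 0.216% and 0.233% to 0.238% in labelled libraries and 0.240% to 0.246% and 0.560% to 0.573% in unlabelled libraries. The means were 0.224% ± 0.0162 in labelled and 0.405% ± 0.229 in unlabelled libraries (SD, n = 2 each), a ratio of 0.554, with an exact two-sided permutation p of 0.333. That is the smallest p that 2 against 2 libraries allow. Without unlabelled replicate 2 the ratio was 0.923.

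Over nuclear genes alone, the members took 0.291% and 0.341% in labelled libraries, against 0.267% and 0.632% in unlabelled libraries. On this scale the groups overlapped, with unlabelled replicate 1 lowest and unlabelled replicate 2 highest (ratio of means 0.703, exact permutation p = 1). Without unlabelled replicate 2 the labelled libraries were the higher ones, with a ratio of 1.18, so the direction over nuclear genes rested on that library. Over all assigned fragments the direction stayed the same without it, at a ratio of 0.923. The same library also had the highest share of H/ACA and Cajal body snoRNAs, the other snoRNA classes, with 0.0224% and 0.0227% in labelled libraries, against 0.0307% in unlabelled replicate 1 and 0.0463% in unlabelled replicate 2. The part of that library's composition in these shares was not tested. In bulk RNA, fewer captured molecules of a class and more of other RNAs in the same library cannot be told apart.

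**Figure D2:**
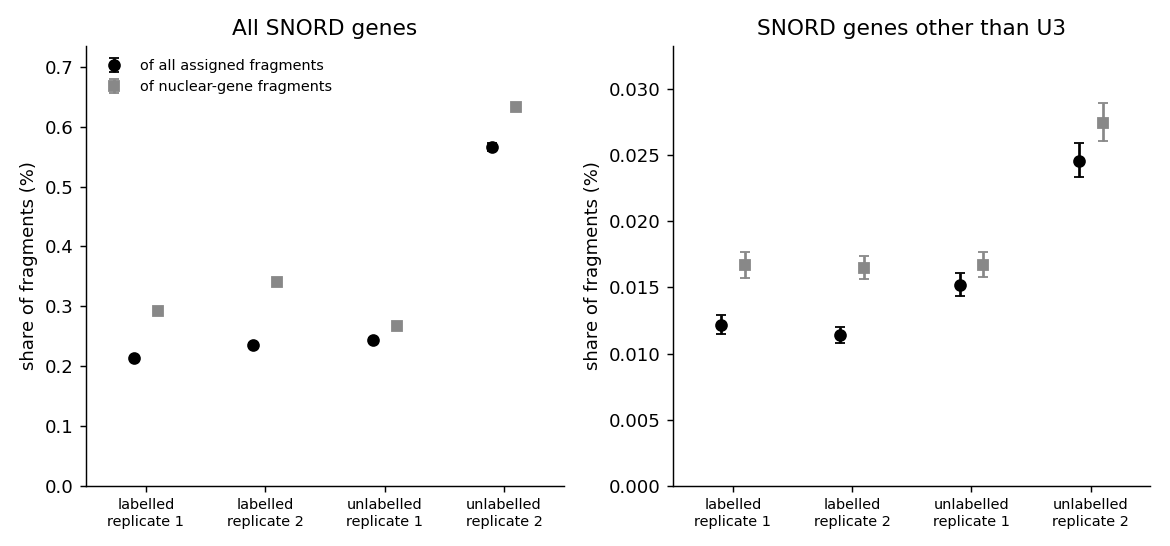
Summed share of C/D snoRNAs per library, as percent of assigned fragments, with 95% Wilson intervals, over all genes and over nuclear genes alone. For all members, unlabelled replicate 2 is the highest library on both scales, at 0.566% and 0.632%. The other 3 libraries lie between 0.213% and 0.341%. For the members other than U3, drawn in a panel of their own, unlabelled replicate 2 is also highest, at 0.0246% and 0.0275%.

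U3 pairs with the ribosomal RNA precursor and is required for the early cleavages that release 18S rRNA. The genes of its copies held nearly all of the counted C/D fragments. The 122 members inside exons, U8 and U22 among them, could not be counted, so these are not shares of all C/D RNA. The 4 counted U3 copies also had intervals of 581 to 791 bases, where the median outside U3 was 80. The U3 RNA of these copies has 217 bases, so part of the fragments may lie outside it. How much of the U3 share comes from the RNA itself was not tested. The U3 copies held 94.3% and 95.2% of the counted C/D fragments in labelled libraries, against 93.7% and 95.7% in unlabelled libraries. SNORD17, an intronic RNA assigned to methylation of 28S rRNA, held 1.64% and 1.34% in labelled libraries, against 2.43% and 2.34% in unlabelled libraries. The other 302 genes together held 4.08% and 3.49% in labelled libraries, against 3.82% and 2.00% in unlabelled libraries.

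Outside U3, the members amounted to 122 and 114 fragments per 1000000 assigned in labelled libraries, against 152 and 246 in unlabelled libraries, and the groups did not overlap. Per 1000000 fragments of nuclear genes the values were 167 and 165 in labelled libraries, against 167 and 275 in unlabelled libraries. On that scale unlabelled replicate 1 was level with the labelled libraries, with a ratio of 0.993 without unlabelled replicate 2. With SNORD17 also left out, the values were 86.9 and 82.4 per 1000000 in labelled and 92.9 and 113 per 1000000 in unlabelled libraries. Per 1000000 nuclear fragments, that same remainder came to 119 and 119 in labelled libraries and to 102 and 127 in unlabelled libraries, so that the groups overlapped (exact permutation p = 1).

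The test across all genes used edgeR's quasi-likelihood fit with TMM scaling, an adjusted p threshold of 0.05 and 19277 genes that passed the same filter. It called 55 genes, 0.285% of those tested, of which 52 were higher (0.27%) and 3 lower (0.0156%) in labelled libraries. None of the 33 members was called; 5 had an unadjusted p under 0.05, 3 higher and 2 lower, where 11% of all genes tested did, 5.5% higher and 5.52% lower. DESeq2 called none, but gave 13 of the 33 members no adjusted p. It called 0.399% of all genes and put 2 members at an unadjusted p under 0.05 (SNORD3B-2 and SNORD17). The log2 fold changes of the members, labelled over unlabelled, had a median of -0.01, beside -0.02 over all genes tested, with 15 above 0 and 18 below. The median absolute log2 fold change of the members was 0.42, beside 0.20 over all genes tested, and most members had low counts. In 13 of the 33 members the groups did not overlap, 39.4%, which was near the 43.7% of all genes tested. Among them, SNORD72, SNORD117 and SNORD121A reached 10 counts in labelled libraries only. They thus passed the filter through the group in which they were high. SNORD121A was also among the 3 higher members with an unadjusted p under 0.05 in edgeR.

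No member was called either with DESeq2 size factors (33 members tested, 0.306% of all genes called), with edgeR's filterByExpr (32 members, 0.285%) or after thinning to the lowest library total (24 members, 0.33%). SNORD17 alone was called with the replicate number as a block (1.2% of all genes), without labelled replicate 1 (0.374%) and without labelled replicate 2 (0.26%). With library sizes alone as the scaling, 3 members were called lower (13.8% of all genes), and the median over all genes moved to -0.37, so that the median of the members relative to it was 0.00. With no filter 4 of 91 members were called (0.761% of all genes). Leaving out unlabelled replicate 2 gave 2 calls, SNORD17 lower and SNORD3B-2 higher (5.32% of all genes), and leaving out unlabelled replicate 1 gave 9 of the members (20.5% of all genes).

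**Figure D3:**
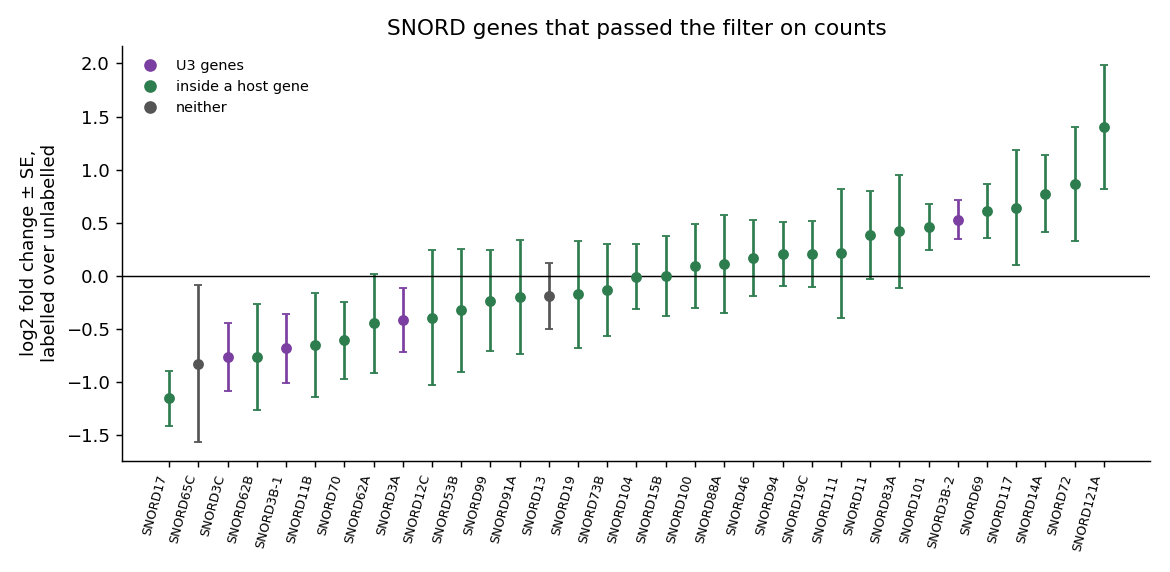
Log2 fold change, labelled over unlabelled, with its standard error for the 33 members that passed the filter, from edgeR on TMM-scaled counts. The values run from -1.16 for SNORD17 to 1.40 for SNORD121A, and no member passed the adjusted threshold.

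Per kilobase of counted length, SNORD3A had the highest value of the members, at a mean of 2426 CPM per kb. It was followed by SNORD3B-1 at 1183, SNORD3C at 329, SNORD17 at 257, SNORD101 at 140 and SNORD3B-2 at 136. SNORD69 followed at 79.1 CPM per kb. These means are over all 4 libraries, and in this order the ranges of neighbours over the libraries overlapped except between SNORD3B-1 and SNORD3C. Within each library SNORD3A was above SNORD3B-1, and SNORD3C was at or above SNORD17, both at 226 CPM per kb in unlabelled replicate 1. The order of SNORD17, SNORD101 and SNORD3B-2 changed between libraries. In labelled libraries alone SNORD17 was at 160 and 156 CPM per kb, within the range of SNORD101 at 182 and 144 and of SNORD3B-2 at 135 and 185. Unlabelled replicate 2, at 485 CPM per kb, carried the mean of SNORD17.

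**Figure D4:**
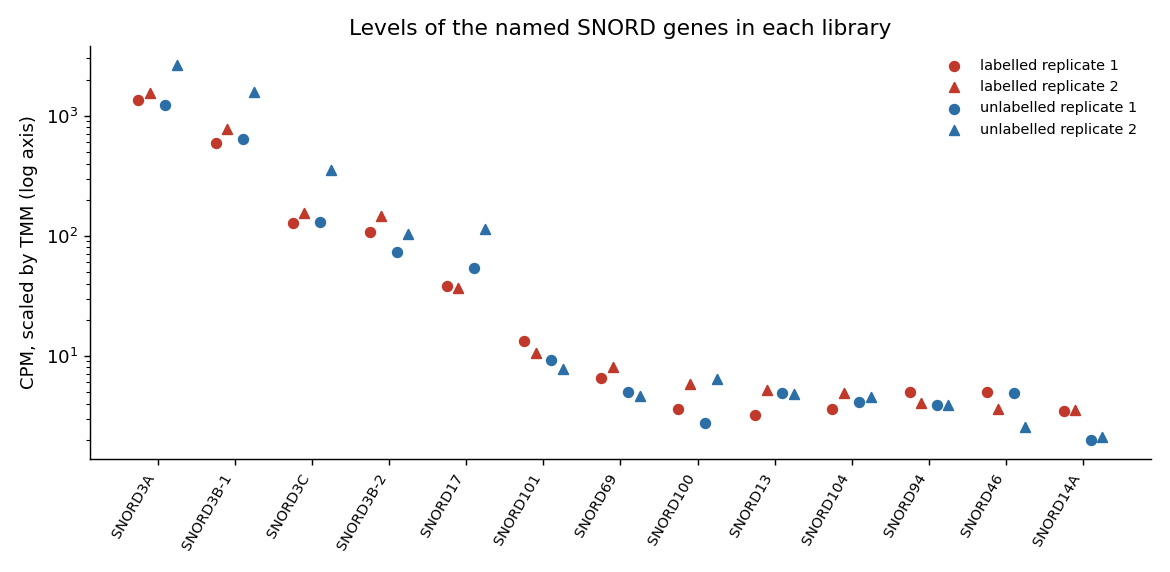
TMM-scaled CPM in each library, on a log axis, for the named members, with labelled libraries left of unlabelled ones. For SNORD3A, SNORD3B-1, SNORD3C and SNORD17 the highest point is unlabelled replicate 2, at 2663, 1576, 352 and 115 CPM.

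Among the U3 copies, 3 shared a pattern that the fourth did not. SNORD3A had 1348 and 1550 CPM in labelled libraries, against 1222 and 2663 CPM in unlabelled libraries. SNORD3B-1 had 596 and 778 CPM in labelled libraries, against 636 and 1576 CPM in unlabelled libraries. SNORD3C had 127 and 155 CPM in labelled libraries, against 131 and 352 CPM in unlabelled libraries. In each of these 3 copies the groups overlapped and unlabelled replicate 2 was the highest library. Their log2 fold changes were -0.42 ± 0.30 for SNORD3A, -0.69 ± 0.32 for SNORD3B-1 and -0.77 ± 0.32 for SNORD3C (SE), with adjusted p-values of 0.634, 0.470 and 0.415 in edgeR. Without unlabelled replicate 2 all 3 turned positive, at 0.25, 0.11 and 0.11. Without unlabelled replicate 1 they were further below 0, at -0.88, -1.20 and -1.32. SNORD3B-1 and SNORD3C passed the threshold, lower in labelled libraries, with library sizes alone and with no filter, and SNORD3A did not.

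SNORD3B-2 had 107 and 147 CPM in labelled libraries, against 73.6 and 103 CPM in unlabelled libraries. The labelled libraries were both higher, although labelled replicate 1 and unlabelled replicate 2 were close. The log2 fold change was 0.53 ± 0.18 (SE) with an adjusted p of 0.339 in edgeR. It passed the threshold without unlabelled replicate 2, at 0.79 with an adjusted p of 5.73e-12, without unlabelled replicate 1, at 0.30 with an adjusted p of 0.0216, and with no filter on counts, at 0.56 with an adjusted p of 0.0364. It missed the threshold in the other alternatives, with adjusted p-values from 0.0812 to 1.00, and the log2 fold change was 0.17 with library sizes alone and 0.28 without labelled replicate 2. In the fits that leave out a library, the group with 1 library is assumed to vary like the other.

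The ratio of the counts of 2 U3 copies within a library does not depend on the scaling of the libraries. The 4 ratios given here were chosen after their values were seen. SNORD3B-2 had 17.9 and 18.9 fragments per 100 of SNORD3B-1 in labelled libraries, against 11.6 and 6.53 in unlabelled libraries. The means were 18.4 ± 0.675 in labelled and 9.05 ± 3.57 in unlabelled libraries (SD, n = 2 each), a difference of 9.32, with an exact permutation p of 0.333. Per 100 of SNORD3A, SNORD3B-2 had 7.91 and 9.46 in labelled libraries, against 6.02 and 3.87 in unlabelled libraries. SNORD3B-1 ran the other way, with 44.2 and 50.2 per 100 of SNORD3A in labelled libraries, against 52.0 and 59.2 in unlabelled libraries, and SNORD3C had 9.41 and 10.0 in labelled libraries, against 10.8 and 13.2 in unlabelled libraries. The groups did not overlap in any of the 4 chosen ratios, which share copies. Each had the smallest exact permutation p that the design allows, 0.333, also after Benjamini-Hochberg adjustment over the 4. In the ratio of SNORD3C to SNORD3B-1, not among them, the groups overlapped. It was 1096 per 5146 and 1628 per 8153 fragments in labelled libraries, against 1186 per 5736 and 2343 per 10500 in unlabelled libraries. On scaled CPM the groups did not overlap in 43.7% of all genes tested. Alignment records of multi-mapping fragments, which are not counted, numbered 64.6 and 130 per 100 assigned in labelled libraries, against 277 and 124 in unlabelled libraries, and their part in these ratios was not tested. SNORD3B-1 and SNORD3B-2 are identical over all 217 bases of the RNA, so their counted fragments must reach bases outside it. Where in the counted intervals the fragments of SNORD3A and SNORD3C came from is not given by the count table.

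**Figure D5:**
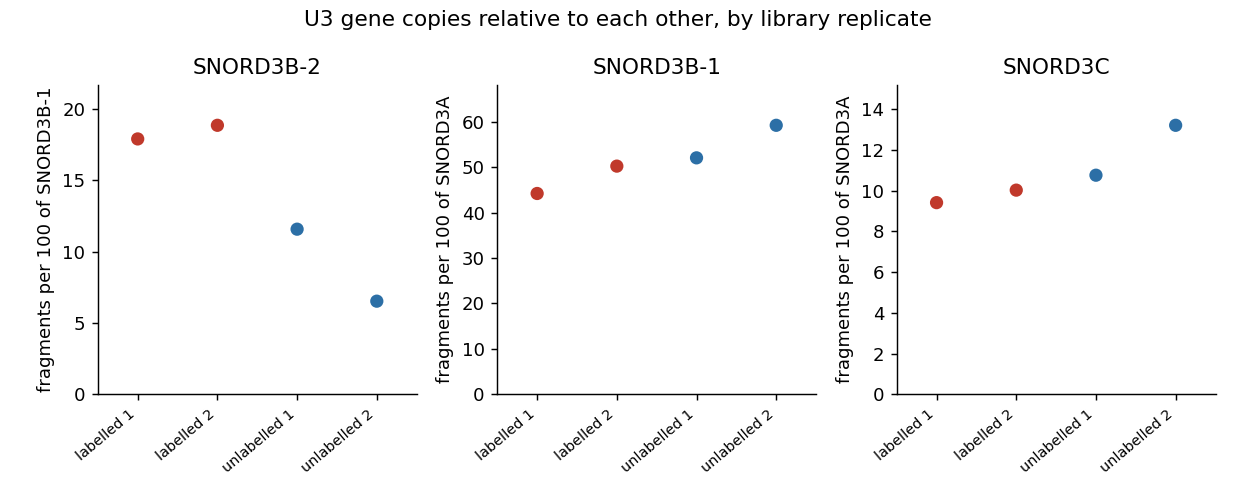
Ratios between counts of the U3 copies in each library, as fragments per 100 of the copy named second. SNORD3B-2 per 100 of SNORD3B-1 is 17.9 and 18.9 in labelled libraries and 11.6 and 6.53 in unlabelled libraries. The groups do not overlap in any panel, and the ratios were chosen after their values were seen.

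SNORD17 had the lowest fold change of the members and the smallest adjusted p. It had 38.0 and 37.0 CPM in labelled libraries, against 53.5 and 115 CPM in unlabelled libraries. Both labelled libraries were lower than both unlabelled ones, and unlabelled replicate 2 was again the highest. The log2 fold change was -1.16 ± 0.26 (SE) with an adjusted p of 0.133 in edgeR, which missed the threshold. It passed in 7 alternatives and missed the threshold in 4, with DESeq2 (adjusted p = 0.778), filterByExpr (0.136), DESeq2 size factors (0.103) and thinning (0.0710). All of these are drawn from the same 4 libraries and are not separate evidence. The 7 include each fit without 1 library, where the group left with 1 library has no spread of its own. The log2 fold change was -1.17 and -1.14 without labelled replicate 1 and 2, and -0.51 without unlabelled replicate 2. Without unlabelled replicate 1 the log2 fold change was -1.62. With the replicate number as a block it was -1.08 with an adjusted p of 6.33e-09, although the numbers were not shown to pair the libraries. The host gene SNX5 had a log2 fold change of -0.22.

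The remaining members each had under 15 CPM in every library. SNORD101, an intronic RNA of RPS12 without an assigned target, had 13.3 and 10.5 CPM in labelled libraries, against 9.31 and 7.81 CPM in unlabelled libraries (log2 fold change 0.46 ± 0.21, adjusted p = 0.463 in edgeR). SNORD69, a guide for 28S rRNA in GNL3, had 6.60 and 8.11 CPM in labelled libraries, against 4.99 and 4.65 CPM in unlabelled libraries (log2 fold change 0.61 ± 0.26, adjusted p = 0.422 in edgeR). In both the labelled libraries were the higher ones without overlap, and neither passed the test. SNORD100, a guide for 18S rRNA that shares the host RPS12, had 3.59 and 5.82 CPM in labelled libraries, against 2.77 and 6.46 CPM in unlabelled libraries, and its groups overlapped.

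Other members differ from the rRNA methylation guides in role or target. SNORD14A (U14), which takes part in 18S rRNA processing as well as methylation, had 3.47 and 3.53 CPM in labelled libraries, against 2.00 and 2.10 CPM in unlabelled libraries. The libraries of each group were close to each other, the groups did not overlap, and the log2 fold change of 0.77 ± 0.36 (SE) had an adjusted p of 0.461 in edgeR. SNORD13 (U13), which guides a base acetylation in 18S rRNA, had 3.24 and 5.16 CPM in labelled libraries, against 4.88 and 4.80 CPM in unlabelled libraries, with overlapping groups. SNORD94, a guide for the spliceosomal U6 RNA, had 4.98 and 4.01 CPM in labelled libraries, against 3.88 and 3.90 CPM in unlabelled libraries, without overlap (log2 fold change 0.20 ± 0.30, adjusted p = 0.837 in edgeR). No U8 or U22 gene had a counted fragment.

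SNORD104 and SNORD46, both guides for 28S rRNA, had log2 fold changes of -0.01 ± 0.31 and 0.16 ± 0.36 (SE). SNORD104 had 3.59 and 4.87 CPM in labelled libraries, against 4.10 and 4.50 CPM in unlabelled libraries. SNORD46 had 4.98 and 3.63 CPM in labelled libraries, against 4.88 and 2.55 CPM in unlabelled libraries. In both the groups overlapped. The highest fold change of all was that of SNORD121A, named after its value was seen, with 14 and 12 fragments in labelled libraries, against 5 and 3 in unlabelled libraries (log2 fold change 1.40 ± 0.58, adjusted p = 0.417 in edgeR). These counts are low, and the member passed the filter through the group in which it was high. By library, the highest value of the 33 members was found in labelled replicate 1 in 8 members, in labelled replicate 2 in 7, in unlabelled replicate 1 in 4 and in unlabelled replicate 2 in 14. Over all genes tested the shares were 18.1%, 23.2%, 23.6% and 35.1% in that order.

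Intronic members and their hosts were set side by side in 27 pairs with 21 hosts, several of which share a host. The member and its host had the same sign of fold change in 11 of 27 pairs, and across pairs Pearson's r was -0.23 and Spearman's rho -0.22, as a description over genes that come from the same 4 libraries. The host fold changes ran from -0.47 to 0.28 and those of the members from -1.16 to 1.40. SNORD14A at 0.77 lay in RPS13 at -0.38, SNORD101 at 0.46 in RPS12 at -0.29, and SNORD69 at 0.61 in GNL3 at 0.28, all on the log2 scale. None of the 21 tested hosts was called.

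The proteins of the C/D ribonucleoprotein did not pass the test either. Among all genes tested 0.285% were called and 11% had an unadjusted p under 0.05. Of the 4 core proteins, none was called and 1 had an unadjusted p under 0.05, with a median log2 fold change of 0.25 beside -0.02 over all genes tested. Fibrillarin (FBL), the methyltransferase, had 142 and 177 CPM in labelled libraries, against 127 and 101 CPM in unlabelled libraries (log2 fold change 0.48 ± 0.16, adjusted p = 0.320 in edgeR). The scaffold proteins NOP56 and NOP58 had log2 fold changes of 0.27 and 0.22, and SNU13, which binds the box motif first, had -0.01. Of 16 tested assembly and U3 proteins none was called and 4 had an unadjusted p under 0.05, with a median of 0.12. RRP9, a U3-specific protein, was at -0.01. Of 15 tested non-coding hosts none was called and 2 had an unadjusted p under 0.05, with a median of 0.12, and GAS5 and SNHG1 were at 0.17 and 0.09.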

How the data were processed

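RNA-seq fragment counts of 2 labelled and 2 unlabelled HEK293T libraries were analysed, grouped by their titles. The deposited values are raw whole-number counts per gene, made by the authors with featureCounts 1.6.4 on GENCODE 44, per the file headers, with no strand or multi-mapping option in the command. The submitters' processing notes name STAR 2.7.9a, GRCh38 and DESeq2 1.42.0. All 62700 gene identifiers were paired with symbols, and sequences came from the GENCODE 29 transcripts, in which all 314 members were matched by gene identifier.

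Genes with 10 or more counts in at least 2 of the 4 libraries were tested with edgeR 4.0.16 (quasi-likelihood, TMM, library sizes from all assigned fragments, no block) in R 4.3.3, with Benjamini-Hochberg adjustment over 19277 genes. Named members were the 12 with the highest CPM, the 4 largest and 4 smallest fold changes at 5 CPM or more, U3, U8, U13, U14 and U22, and 2 members on each side of the filter. The members and lists were chosen with earlier results of these data known. Shares have 95% Wilson intervals from SciPy 1.17.1, which cover counting error only, since PCR reads are not independent molecules. Shares and ratios were compared with exact permutation tests in Python 3.11.15. Plots used matplotlib 3.10.9. The edgeR step was tested on simulated data for this comparison: of 187 genes changed 4-fold among 18773 genes, 180 were recovered, with 7 false calls. The simulation gave all genes the same dispersion and had no outlying library. Recovery of changes as small as those of the members was not tested. Alternatives were other scalings and filters, DESeq2 1.42.0, thinning, a replicate block and leaving out each library.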

Additional observations from a re-analysis of the deposited data

How the results depend on the processing

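No member was called with DESeq2 size factors (33 tested), filterByExpr (32), thinning to the lowest total (24) or DESeq2, where 13 of 33 had no adjusted p. It was 3 with library size alone (SNORD17, SNORD3B-1 and SNORD3C, lower), 4 of 91 with no filter, 1 with the replicate block (SNORD17), and between 1 and 9 when each library was left out. The median log2 fold change was -0.36 with library size alone, where that of all genes was -0.37, and ranged from -0.17 to 0.11 with a library left out. The labelled minus unlabelled difference ranged from -0.342 to -0.0187 percentage points for the summed share and from -0.329 to -0.0153 for U3; over nuclear genes and without unlabelled replicate 2, an alternative chosen after seeing the data, it was 0.0492 and 0.0493. With all 4 libraries, the difference in the share outside U3 and SNORD17 turned sign. It was -0.00186 points over all assigned fragments and 0.000471 points over nuclear genes. SNORD3B-2 per 100 of SNORD3B-1 differed by 6.80 to 11.8 with a library left out.

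Of 143 values of 13 named members, 15 turned sign: with library size alone SNORD100 (-0.28), SNORD94 (-0.14) and SNORD46 (-0.17), with thinning SNORD100 (-0.10), with no filter SNORD104 (0.025), and the rest with a library left out. There, SNORD3A ranged from -0.88 to 0.25, SNORD3B-1 from -1.20 to 0.11, SNORD3C from -1.32 to 0.11, SNORD100 from -0.43 to 0.79, SNORD13 from -0.58 to 0.094, SNORD104 from -0.26 to 0.19 and SNORD46 from -0.20 to 0.73. Replicate numbers were not shown to pair libraries: deviations of the same-numbered libraries correlated at -0.07 over 19277 genes, with only 2 pairs. Low counts limit the precision of most members outside U3.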
